A study of Mus musculus with 2 samples.

Results

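The genes described here are 10 genes of mast cells, the proteases Mcpt1, Mcpt2, Mcpt4, Cma1, Tpsb2, Tpsab1 and Cpa3 and the receptors Fcer1a, Ms4a2 and Kit, among the 22909 genes named on a pair of Agilent mouse expression arrays. They were selected on their array signals and on the log2 ratio of EP4 cKO over Villin-Cre, so that their values are a description of these arrays and no test was made. RNA of whole colon from control Villin-Cre mice was compared with that from mice with the genotype Villin-Cre; EP4flox/flox (called EP4 cKO), both on a C57BL/6 background and 8 weeks old, with 1 array per genotype and both arrays on the same slide. Both groups carry Cre recombinase under the villin promoter, which is active in intestinal epithelium, and in EP4 cKO mice Cre deletes a floxed stretch of Ptger4, which encodes the prostaglandin E2 receptor EP4, from these cells. Mast cells were thus not the cells targeted. No mouse without Cre was analysed here. By the labels, the RNA on each array had been combined from 3 pools of colon, so the spread between mice cannot be given. No difference has a replicate check, no p-value is given, and every direction rests on the labels of the arrays.

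Mast cells are resident immune cells that keep a large store of active proteases in their granules, bound to the proteoglycan serglycin, and release them when antigen crosslinks IgE on their surface. In the mouse, mucosal mast cells, which lie in the epithelium and lamina propria of the gut and expand with T cell cytokines and TGF-beta, store the chymases Mcpt1 and Mcpt2. Connective tissue mast cells, which in the gut lie mostly in the submucosa and muscle layers, store the chymases Mcpt4 and Cma1, tryptase and carboxypeptidase A3. Both need Kit, the receptor for stem cell factor, and carry the IgE receptor, of which Fcer1a encodes the chain that binds IgE and Ms4a2 the beta chain that amplifies the signal.

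As a check of the labels, Ptger4 was read first. Its brighter probe had a scaled signal of 6227 on the Villin-Cre-labelled array and 5661 on the EP4 cKO-labelled array, a log2 ratio of -0.14 that changed sign with scaling to the 75th percentile and to the E1A control spots. The dimmer probe had 393 and 592, a log2 ratio of 0.59. Ptger4 was thus not lower by 2-fold on the EP4 cKO-labelled array. RNA of whole colon also holds cells in which Cre is not active, but their part in these signals was not tested. Whether these probes lie in the deleted part was not determined.

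The signals were scaled so that the trimmed mean of each array was 2500, with factors of 3.45 for the Villin-Cre-labelled array and 2.68 for the EP4 cKO-labelled array. On the former, 45.4% of the 56593 gene probes were well above background, and on the latter 51.6%, with 0 saturated spots on either. A probe dim on 1 array was held there at its own signal or, if higher, at the lowest scaled signal among probes well above background, which was 125 on the first array and 57.8 on the second. Its ratio is then a bound, given as "at least", and where the bound was 1 or less the log2 ratio was set to 0. The errors given are those of the scanner software for 1 spot, carried to the log2 scale, and do not cover mice, pools or labelling. Where a gene had several probes, the one with the highest mean log2 signal stands for it.

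Of the 10 mast cell genes, 9 had a probe (10 probes in all) and 9 had a value, and 3 of these, Mcpt4, Cma1 and Kit, were measured on both arrays. On the EP4 cKO-labelled array, 5 of the 9 (Mcpt1, Mcpt2, Mcpt4, Cma1 and Cpa3) passed 2-fold upward and 0 downward. Over all 14669 genes with a value, 4.86% passed 2-fold upward and 7.87% downward. The median log2 ratio of the 9 genes was 1.05, beside -0.10 over all genes. Since the list was drawn up with these ratios known, nothing is read from the counts. Cma1 was the gene closest above the 2-fold threshold and Fcer1a the closest below it.

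**Figure D1:**
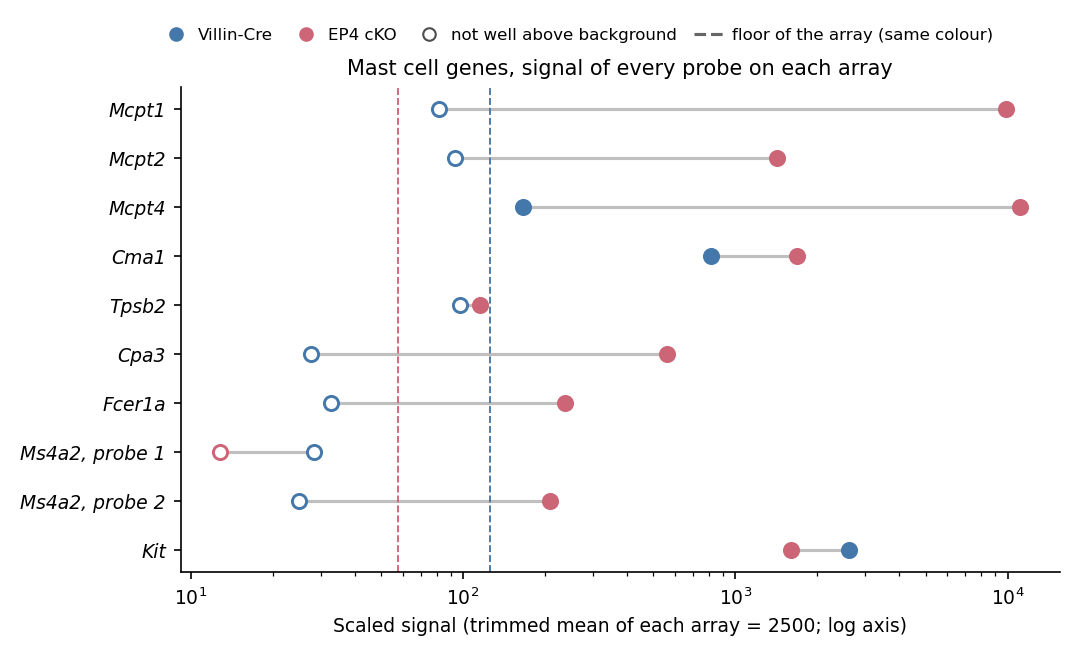
Scaled signal (log axis, trimmed mean of each array set to 2500) of each of the 10 probes of the mast cell genes on the arrays labelled Villin-Cre (blue) and EP4 cKO (red), with open circles for signals not well above background and dashed lines at the lowest signal well above background on each array (125 and 57.8). The red points of Mcpt1, Mcpt2, Mcpt4 and Cpa3 stand far to the right of the blue ones, Tpsb2 and Cma1 have short lines, and Kit runs the other way (it did not with scaling to the E1A control spots).

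Among the mucosal proteases, Mcpt1, a chymase secreted into the gut lumen and blood during worm infection, had a scaled signal of 81.3 on the Villin-Cre-labelled array, not well above background, and 9897 on the EP4 cKO-labelled array. This is at least 79.0-fold higher (log2 bound 6.30 ± 0.14), and before scaling the signals were 23.6 ± 8.73 and 3687 ± 369 (software error of 1 spot). The bound was the third highest among the 590 genes dim on the Villin-Cre-labelled array with a bound above 1. Mcpt2, a relative stored in the same mucosal mast cells, had 93.2, again not well above background, and 1422, at least 11.3-fold higher (log2 bound 3.50 ± 0.14). Both mucosal chymases were therefore seen on 1 array only, and with normexp and quantile normalization their log2 bounds were lower, at 5.10 and 2.53.

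Among the proteases of connective tissue mast cells, Mcpt4, the main chymase of mouse peritoneal and skin mast cells with a cleavage specificity like that of human chymase, had the largest ratio of the mast cell genes measured on both arrays. Its scaled signal was 166 on the Villin-Cre-labelled array, well above background but near the floor of 125, and 11093 on the EP4 cKO-labelled array, which is 66.9-fold higher (log2 ratio 6.06 ± 0.34). The unscaled signals behind this ratio were 48.0 ± 10.2 and 4132 ± 413, and it stood at place 10 among the 12816 genes measured on both arrays, ordered by ratio. Cma1, an alpha-chymase that in the mouse has elastase activity, had 815 and 1687, 2.07-fold higher (log2 ratio 1.05 ± 0.21, place 470). Its ratio passed 2-fold by less than the software error of 1 spot. Mcpt4 and Cma1, both counted as connective tissue proteases and both measured on both arrays, had ratios that were 5.02 apart on the log2 scale, and with normexp and quantile normalization the ratios were 4.95 and 1.12.

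Cpa3, the carboxypeptidase that trims peptides and venom toxins and is stored in the same complexes as Cma1, had 27.6 on the Villin-Cre-labelled array, not well above background, and 562 on the EP4 cKO-labelled array, at least 4.49-fold higher (log2 bound 2.17 ± 0.15, or 1.53 with normexp and quantile normalization). Tpsb2, the mast cell tryptase that is kept as a tetramer on heparin, had 97.8, not well above background, and 115, well above background but under the floor of the other array, so that no fold above 1 could be given. Tpsab1, the other tryptase, is listed as a transcribed pseudogene in the RefSeq table used here, and no probe was matched to it.

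Of the receptors, Fcer1a had 32.7 on the Villin-Cre-labelled array, not well above background, and 236 on the EP4 cKO-labelled array, at least 1.88-fold higher (log2 bound 0.91 ± 0.17). Ms4a2 had 2 probes. One had 25.0, not well above background, and 208, at least 1.66-fold higher (log2 bound 0.73 ± 0.16), while the other had 28.4 and 12.9 and was dim on both arrays. The alpha and beta chains of the IgE receptor were therefore detected on the EP4 cKO-labelled array alone, with bounds below 2-fold. The bound of Fcer1a passed 2-fold with 4 of the 5 other scalings and background corrections and that of Ms4a2 with 2 of them.

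Kit, the receptor tyrosine kinase on which mast cell survival depends, went the other way with the scaling used here. It had 2615 on the Villin-Cre-labelled array and 1604 on the EP4 cKO-labelled array, 1.63-fold lower (log2 ratio -0.71 ± 0.20), and its sign turned when the E1A control spots were set equal (log2 ratio 0.38). Kit is also carried by interstitial cells of Cajal, the pacemaker cells of gut muscle. Of 4 markers of these cells, 3 had a value and 0 passed 2-fold in either direction. The median log2 ratio was -0.43 (0.65 with scaling to the E1A control spots, beside 0.92 over all genes). The summed signal was 156610 on the Villin-Cre-labelled array and 145276 on the EP4 cKO-labelled array. Most of it came from Ano1 (75111.5 and 84951.2) and Thbs4 (81022 and 59995.4), in the range of the epithelial marker Cdh1 (67618.5 and 62929.9). Whether these signals came from interstitial cells of Cajal was not tested. Ano1, a chloride channel that sets their rhythm, had a log2 ratio of 0.18 (1.26, past 2-fold, with the E1A control spots), and Etv1, their transcription factor, had -0.57 (0.51 with the E1A control spots). The part of these cells in the value of Kit was not tested. In RNA of a whole tissue, fewer cells of a type and less RNA per cell cannot be told apart.

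**Figure D2:**
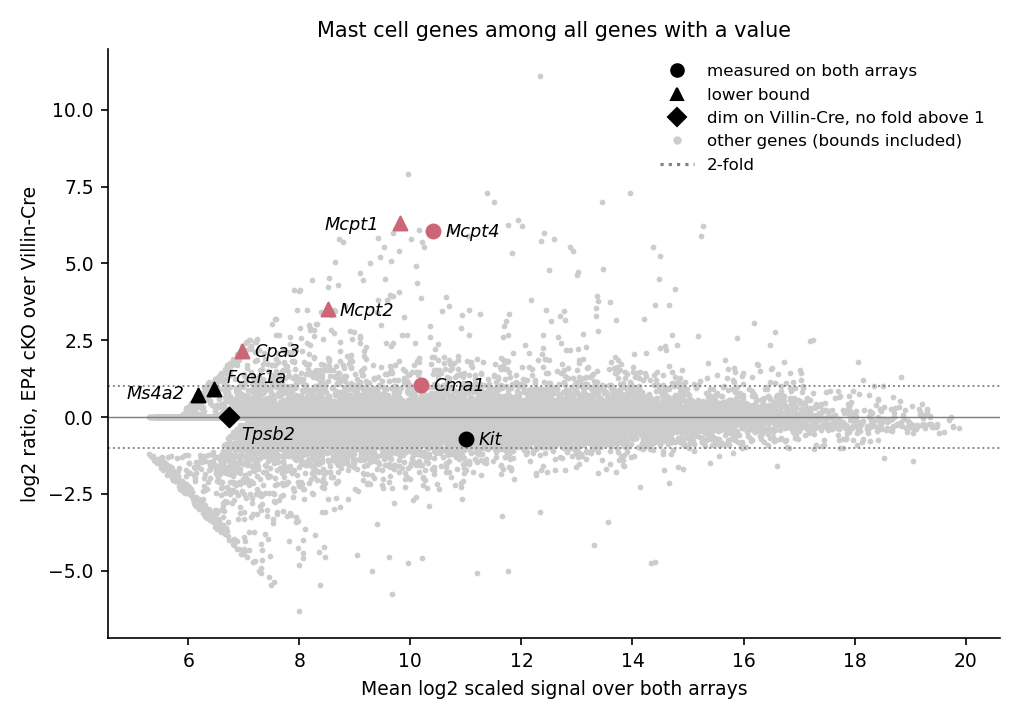
Log2 ratio of EP4 cKO over Villin-Cre against the mean log2 scaled signal over both arrays for the 14669 genes with a value (grey, 1 point per gene, bounds included), with the mast cell genes as circles (measured on both arrays), triangles (bounds) or a diamond (no fold above 1), in red where more than 2-fold higher. Mcpt1 and Mcpt4 lie near the top of the cloud, Cma1 sits at the 2-fold line, and Kit lies below 0 (above 0 with scaling to the E1A control spots).

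The genes whose measured ratio was nearest to that of Mcpt4 were Oas2, an interferon-induced antiviral enzyme (208 and 14046, log2 ratio 6.07), Ang2 and Ang6 of the angiogenin ribonuclease family (log2 ratios 5.99 and 6.21), Clca4b of the CLCA family (6.23) and H2-Ab1, a chain of MHC class II (5.89). Nearness here means a small difference in a single ratio from 2 arrays. The gaps were wider with another background correction, since with normexp and quantile normalization Mcpt4 had 4.95, Oas2 5.19 and the other 4 genes 5.69 to 6.31.

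The sequences before the start of 4 of the proteases are shown to compare the proteases with the largest and smallest measured ratios (Mcpt4 and Cma1), the mucosal chymase Mcpt1 and Cpa3. Each is the 150 bases before the annotated start, read 5′ to 3′ on the strand of the gene, from the RefSeq promoter table (GRCm38.p6). Capitals mark the letters AGATAA or TGATAA, the form of the site bound by GATA factors, of which Gata1 and Gata2 act in mast cells. The windows are chr14:56017814-56017963 (plus strand) for Mcpt1, chr14:56062311-56062460 (minus strand) for Mcpt4, chr14:55944676-55944825 (minus strand) for Cma1 and chr3:20242182-20242331 (minus strand) for Cpa3.
Mcpt1: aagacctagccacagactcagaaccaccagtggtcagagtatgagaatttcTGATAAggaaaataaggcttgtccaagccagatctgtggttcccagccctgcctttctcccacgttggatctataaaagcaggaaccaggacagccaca
Mcpt4: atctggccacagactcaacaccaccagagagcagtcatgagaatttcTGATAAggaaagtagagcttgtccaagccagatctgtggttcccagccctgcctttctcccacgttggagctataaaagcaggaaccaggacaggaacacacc
Cma1: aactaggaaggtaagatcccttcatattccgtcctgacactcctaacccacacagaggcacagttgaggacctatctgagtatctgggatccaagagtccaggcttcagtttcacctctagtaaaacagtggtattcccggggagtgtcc
Cpa3: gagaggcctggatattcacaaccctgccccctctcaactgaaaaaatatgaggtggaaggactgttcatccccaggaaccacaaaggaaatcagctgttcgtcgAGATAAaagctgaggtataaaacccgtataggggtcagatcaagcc

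Of the 10 mast cell genes, 7 had a promoter in this table, and Mcpt2, Tpsb2 and Tpsab1 had no entry. Over 300 bases (250 before the start and 50 after), the promoters of Mcpt1 and Mcpt4 were 81.0% identical, and over the 150 bases shown 85.1%. The other 20 pairs were 40.2% to 50.8% identical. The letters AGATAA or TGATAA, searched on both strands, were found in 5 of the 7 promoters, beside 18.6% of all 32851 promoters of the table. TGATAA began 99 bases before the start of Mcpt1 and 103 bases before that of Mcpt4, and AGATAA began 46 bases before the start of Cpa3. Fcer1a and Ms4a2 also held these letters, and Cma1 and Kit did not (Kit in neither of its 2 entries, which start 4 bases apart). CATGTG or CACGTG, the letters of an E-box that Mitf can bind, were found in 1 of the 7 promoters (Fcer1a), beside 20.4% of all promoters. No match overlapped another. A match shows only that the letters are in the window.

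Most of the chymases lie side by side on chromosome 14, together with granzymes, the proteases of cytotoxic lymphocytes, and cathepsin G of neutrophils. Of the 17 genes of this locus, from Cma1 to Gzmb in the order of the reference, 17 had a probe and 7 were dim on both arrays. On the EP4 cKO-labelled array, 0 passed 2-fold downward and 7 upward, beside 4.86% upward over all genes with a value. Of these 7, 4 were the members described above, which were selected with this ratio known. The others were Cma2, a chymase-like gene (526 and 3216, log2 ratio 2.61), and Mcpt-ps1, a transcribed pseudogene (447 and 1424, log2 ratio 1.67). Gzmb, or granzyme B, also passed (42.0, not well above background, and 572, log2 bound 2.19). Cma2 and Mcpt-ps1 overlap in the RefSeq table. Gm5801, a transcribed pseudogene between Cma2 and Mcpt1, had 12608 and 9309, a log2 ratio of -0.44 that changed sign with scaling to the E1A control spots. Mcpt9, which lies between Mcpt2 and Mcpt4, and Mcpt8, a protease of basophils that follows Mcpt4, were dim on both arrays, and so were Gzmd, Gzme, Gzmf, Gzmg and Gzmn. Since Gm5801 was measured and did not pass, the genes past 2-fold were not a single unbroken stretch of the locus. The genes dim on both arrays have no ratio and do not bear on this. Probe sequences were not used here, and whether a probe of one protease also binds the RNA of a near-identical neighbour was not tested.

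**Figure D3:**
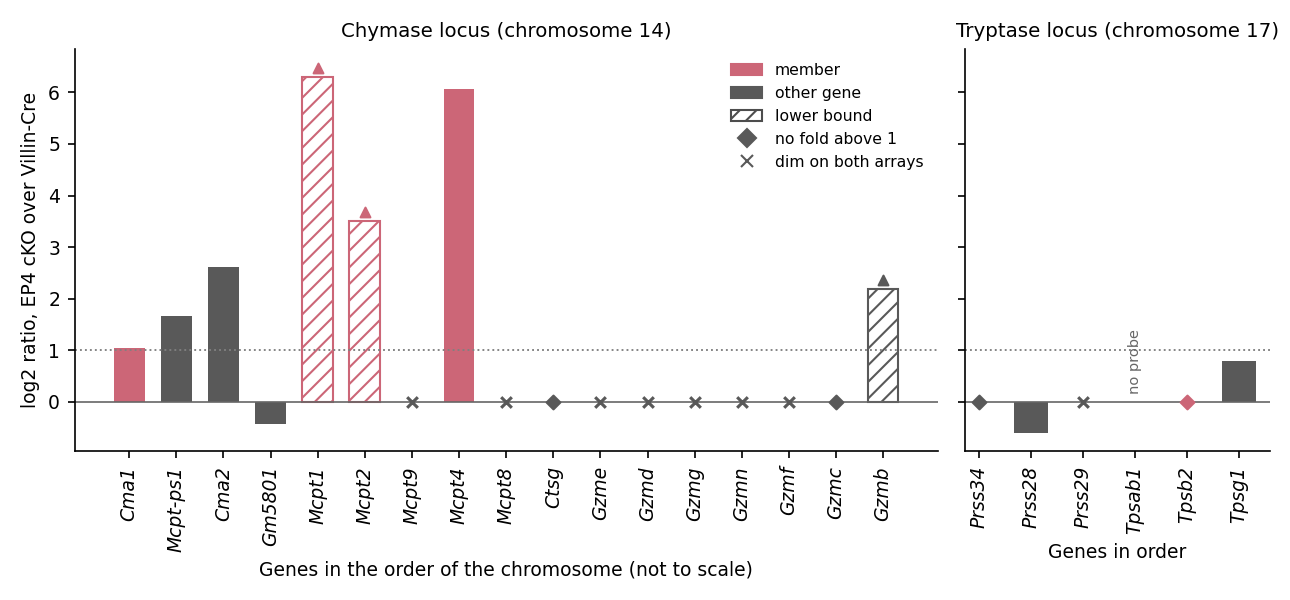
Log2 ratio of EP4 cKO over Villin-Cre for the genes of the chymase locus (left, 17 genes) and the tryptase locus (right, 6 genes) in the order of the chromosome, not to scale, with hatched bars for bounds, diamonds for no fold above 1 and crosses for genes dim on both arrays. Of the chymase locus 7 genes pass the dotted 2-fold line, among them Mcpt1 (6.30) and Mcpt4 (6.06), while Mcpt9 and Mcpt8 beside Mcpt4 are dim, and of the tryptase locus 0 genes pass it.

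The tryptases lie together on chromosome 17. Of 6 genes there, 5 had a probe, and 0 were more than 2-fold higher or lower. Tpsg1, a tryptase anchored in the membrane, had 10685 and 18423, a log2 ratio of 0.79 (1.87 with scaling to the E1A control spots). Prss28 had 352 and 230, a log2 ratio of -0.61 that changed sign with scaling to the E1A control spots. Prss29 was dim on both arrays, and Prss34, a protease of basophils, had no fold above 1.

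Of 11 other mast cell genes that make or store histamine, heparin and lipid mediators, 11 had a value, and 1 was more than 2-fold higher and 0 lower by that much, and the median log2 ratio was 0.08. The count higher was 2 with the 75th percentile, loess and the trimmed mean over all spots, and 9 with the E1A control spots (median 1.17). Over all genes, 6.39%, 7.73%, 6.14% and 43.2% passed upward with these settings in the same order. The median over all genes with the E1A control spots was 0.92, so that most of the list's median there is shared by all genes. The 1 gene was Srgn, the serglycin core protein that holds the proteases in the granule and is made by many leukocytes (329 and 1002, log2 ratio 1.61). Hdc, the enzyme that makes histamine, had 32.9, not well above background, and 134, a log2 bound of 0.09. Slc18a2, which carries histamine into granules, had 185 on both arrays. Alox5, the first enzyme of leukotriene synthesis, had 45.2, not well above background, and 249, a log2 bound of 0.99 that passed 2-fold with 4 of the 5 other scalings and background corrections.

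Of 14 other surface receptors of mast cells, 10 had a value, 2 were more than 2-fold higher and 0 lower by that much, and the median log2 ratio was 0.31. The count higher was 3 with the 75th percentile, loess and the trimmed mean over all spots, and 7 with the E1A control spots. Among all genes with a value, 6.39%, 7.73%, 6.14% and 43.2% passed upward with these settings in the same order. The 2 genes were Il4ra, the chain shared by the receptors of IL-4 and IL-13 (571 and 1615, 2.83-fold higher), and Csf2rb2, a receptor chain for IL-3 (69.5, not well above background, and 375, log2 bound 1.58). Fcer1g, the signaling chain that the IgE receptor shares with other Fc receptors, had 693 and 1074, a log2 ratio of 0.63. Mrgprb2, a receptor of connective tissue mast cells for basic peptides and drugs, was dim on both arrays, as were Mrgprb1, Il9r and Cd200r3. Il1rl1, the receptor for IL-33, had 31.9, not well above background, and 128, a log2 bound of 0.03.

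Of 18 genes that carry the signal of the IgE receptor and of Kit, 15 had a value, 1 passed 2-fold upward and 1 downward, and the median log2 ratio was 0. With loess 3 passed upward (median 0.31) and with the E1A control spots 7 did (median 0.98), with 1 downward in both. Over all genes, 7.73% passed upward with loess (median 0.03) and 43.2% with the E1A control spots (median 0.92). Syk, the kinase recruited by the IgE receptor, had 5039 and 12151, a log2 ratio of 1.27. Its dimmer probe had 211 and 350, a log2 ratio of 0.73 that did not pass 2-fold. Lat2, an adaptor that Kit and the IgE receptor use, had 817 and 78.2, a log2 ratio of -3.38. Its other probe had 27.7 and 61.7 and was dim on both arrays.

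Of 10 transcription factors of mast cells, 6 had a value and 0 passed 2-fold in either direction, and the median log2 ratio was -0.22. With scaling to the E1A control spots the median was 0.87, beside 0.92 over all genes, and 2 passed upward. Gata1, Gata2, Tal1 and Spi1 were dim on both arrays. Mitf, which Kit signaling acts through and which drives protease genes, had 214 and 132, a log2 ratio of -0.69 that changed sign when the E1A control spots were set equal.

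Of 11 growth and maturation signals of mast cells, 4 had a value, 0 passed 2-fold upward and 1 downward. That gene was Il33, an alarmin of stromal and epithelial cells (608 and 120, log2 ratio -2.34). Kitl, or stem cell factor, had 2227 and 1846, a log2 ratio of -0.27 that changed sign with scaling to the E1A control spots. The T cell cytokines Il3, Il4, Il9, Il10 and Il13 were dim on both arrays.

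Of 11 genes of mast cell homing and of TGF-beta activation in the mucosa, 8 had a value, 1 passed 2-fold upward and 0 downward, and the median log2 ratio was 0.50. Upward calls numbered 2 with the 75th percentile and the trimmed mean over all spots, 3 with loess and 7 with the E1A control spots (median 1.59). Over all genes, 6.39%, 6.14%, 7.73% and 43.2% passed upward with these settings in the same order, with a median of 0.92 in the last. Itgae, the alphaE integrin chain of mucosal mast cells and of intraepithelial T cells, had 159, not well above background, and 523, a log2 bound of 1.72. Itgb6, the epithelial integrin chain that activates TGF-beta, had 1603 and 3114, a log2 ratio of 0.96 that passed 2-fold with 4 of the 5 other scalings and background corrections. Of 4 protease-activated receptors, 2 had a value and 0 were more than 2-fold higher or lower (1 was higher with the 75th percentile, loess and the E1A control spots). F2rl1, the receptor that tryptase cleaves, had 808 and 1453, a log2 ratio of 0.85.

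**Figure D4:**
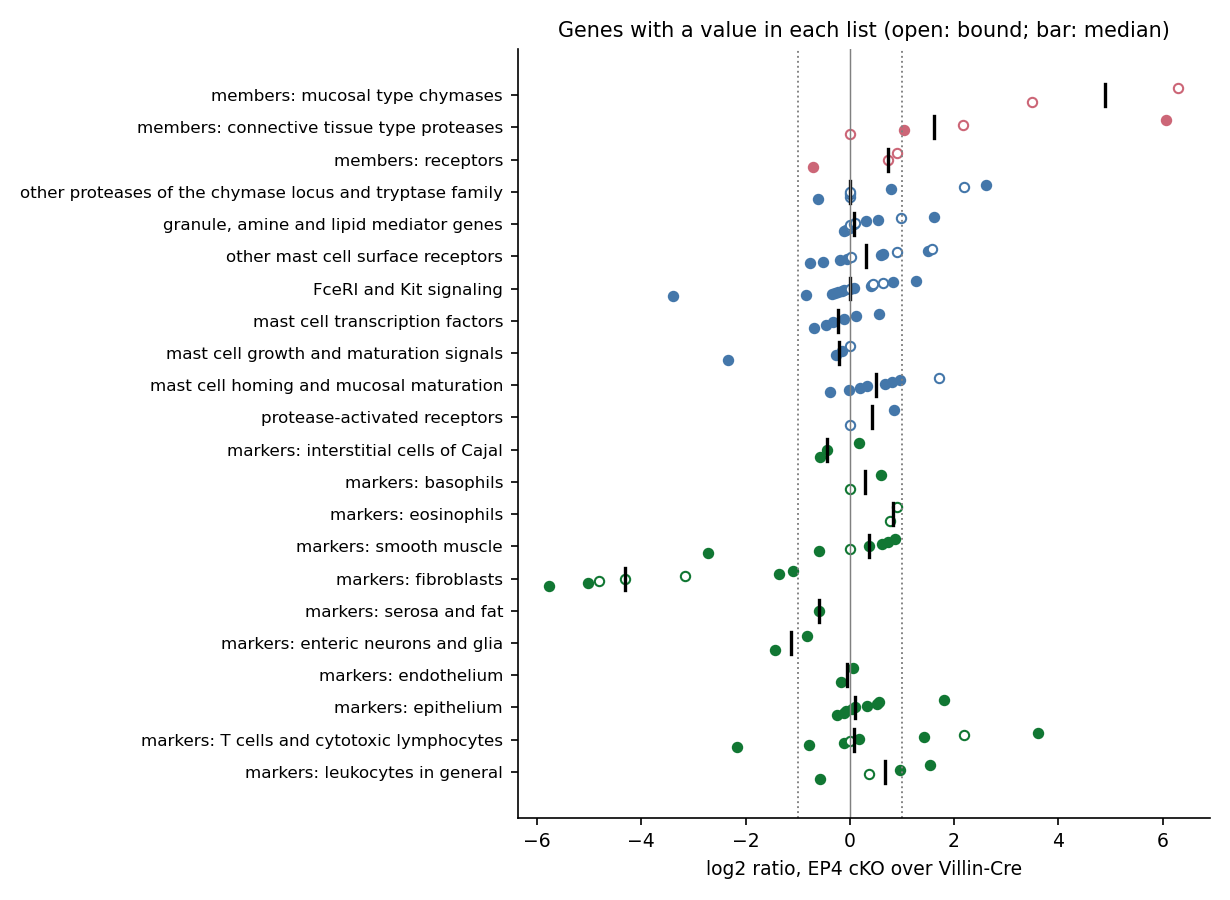
Log2 ratio of EP4 cKO over Villin-Cre for each gene with a value (filled points, measured on both arrays, open points, bounds or no fold) in the mast cell groups (red), the lists of other mast cell genes (blue) and the marker lists of other cell types (green), with a black bar at the median of each list and dotted lines at 2-fold. The medians run from 4.90 for the 2 mucosal chymases to -4.32 for the fibroblast markers.

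Markers of other cells that could hold these RNAs were read beside these values. Of 4 basophil markers, 2 had a value and 0 passed 2-fold, with a summed signal of 1760 and 2434, of which Il3ra gave most, and with Mcpt8 and Cd200r3 dim on both arrays. Of 5 eosinophil markers, 2 had a value and 0 passed 2-fold, with a summed signal of 236 and 520, and Prg2, Epx and Ccr3 were dim on both arrays. Upward calls among the eosinophil markers numbered 1 with the 75th percentile and the trimmed mean over all spots and 2 with loess and the E1A control spots, and 1 basophil marker passed with the E1A control spots. Of 8 markers of T cells and cytotoxic lymphocytes, 3 passed 2-fold upward and 1 downward, with a summed signal of 13396 and 19212. These were Gzma (476 and 5795, log2 ratio 3.60), Gzmb, Nkg7 (1.42) and, lower, Prf1 (1269 and 284, log2 ratio -2.16). Of 4 markers of leukocytes in general, 1 (Coro1a, 1.53) was more than 2-fold higher, with a summed signal of 1626 and 3553. Ptprc, or CD45, had a log2 ratio of 0.97 that passed 2-fold with 4 of the 5 other settings, and 2 to 3 of the 4 leukocyte markers passed with those 4. Of the T cell and cytotoxic markers, 5 passed upward with the E1A control spots. With that scaling 43.2% of all genes passed upward. The part of lymphocytes and other leukocytes in the values of the mast cell genes, Gzmb and Srgn was not tested.

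Markers of the structural cells of the colon were read in the same way. Of 9 fibroblast markers, 7 had a value and 7 were more than 2-fold lower on the EP4 cKO-labelled array (5 to 6 with the other scalings and background corrections), with a summed signal of 13710 and 590. Dcn, or decorin, had 6006 and 110, a log2 ratio of -5.77. Of 10 smooth muscle markers, 7 had a value, 0 were higher and 1 (Cnn1, 479 and 72.3) was lower by more than 2-fold, with a summed signal of 35620 and 52085. Of these, Myh11, Lmod1 and Synpo2 were dim on both arrays, while the brightest probe of Acta2 had 18006 and 27719. Another probe of Acta2 went the other way, with 451 and 302 (log2 ratio -0.58), and its remaining probe was dim on both arrays. Of 9 epithelial markers, 1 (Krt20, log2 ratio 1.80) was more than 2-fold higher and 0 lower by that much, with a summed signal of 1.80e+06 and 2.36e+06, so that the markers of colon epithelium named by the label of the tissue were present on both arrays. With the E1A control spots, 7 of the epithelial and 4 of the smooth muscle markers passed 2-fold upward, and with the 75th percentile 1 smooth muscle marker did (Mylk, 1.02). Over all genes, 43.2% passed upward with the E1A control spots and 6.39% with the 75th percentile. The remaining lists were small. Of 6 markers of serosa and fat, 1 had a value and 0 passed 2-fold, of 6 markers of enteric neurons and glia, 2 had a value and 1 (Uchl1, 1877 and 699) was more than 2-fold lower, and of 4 endothelial markers, 2 had a value and 0 passed 2-fold. With the E1A control spots Uchl1 no longer passed (-0.34) and 1 endothelial marker passed upward (Vwf, 1.15). The part of these differences in the values of the mast cell genes was not tested.

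Other ways of processing the same signals gave a wide range for the mast cell genes. Over the alternatives run, the log2 ratio or bound lay between 5.10 and 7.39 for Mcpt1, between 4.95 and 7.15 for Mcpt4, between 2.53 and 4.59 for Mcpt2, between 1.53 and 4.35 for Cpa3, and between 1.05 and 2.14 for Cma1. These 5 genes were above 2-fold in every alternative that gave them a value at that threshold. Fcer1a ran from 0.74 to 2.85, Ms4a2 from 0.73 to 3.06, Tpsb2 from 0 to 0.96 and Kit from -0.71 to 0.38. The upper ends for Cpa3, Fcer1a and Ms4a2 come from the setting with no filter, which divides by signals of the Villin-Cre-labelled array of only 0.998, 1.14 and 0.996 times their software error. With the filter kept, the highest values were 3.25 for Cpa3 and 1.82 for Ms4a2, with scaling to the E1A control spots.

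**Figure D5:**
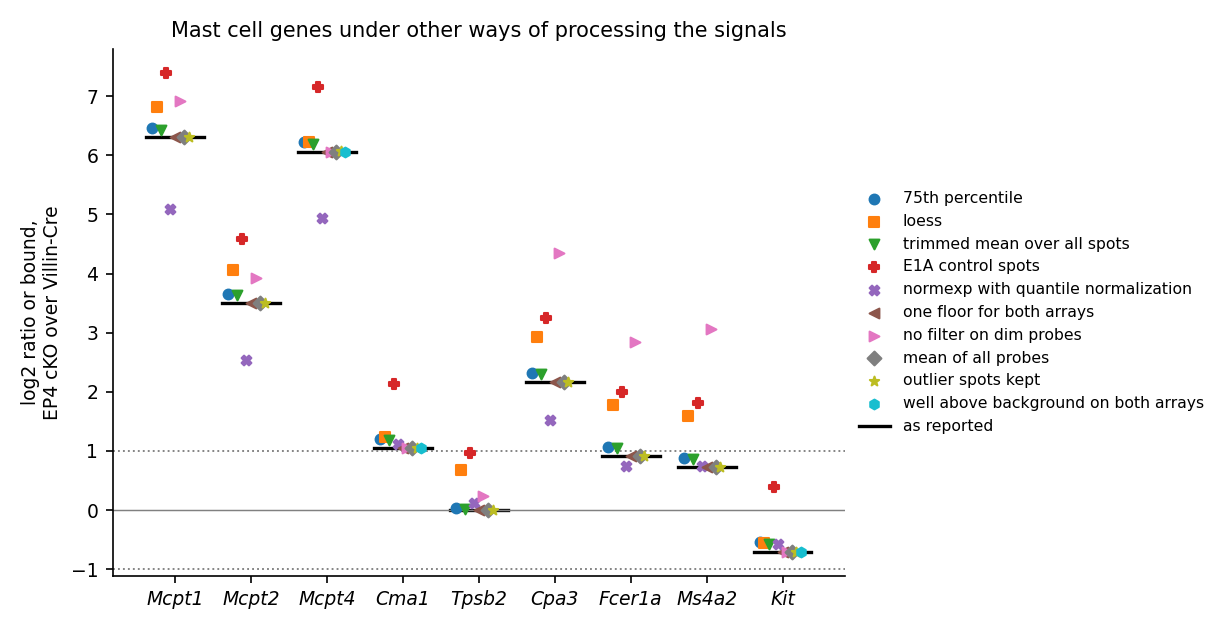
Log2 ratio or bound (EP4 cKO over Villin-Cre) of each mast cell gene as reported (black line) and under 10 other ways of scaling, correcting or filtering the signals (symbols), with dotted lines at 2-fold. The symbols of Mcpt1, Mcpt2, Mcpt4, Cma1 and Cpa3 stay above the upper dotted line, those of Fcer1a and Ms4a2 lie on both sides of it, and Kit changes sign with scaling to the E1A control spots.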

How the data were processed

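The authors hybridized Cy3-labelled RNA to 1-colour Agilent mouse arrays and deposited the intensity of each spot as the scanner software wrote it (Feature Extraction 12.0.3.1 by the file headers, 11.5.1.1 by the submitters' processing notes), with background subtracted and spatial trends removed but no scaling between arrays. The deposited flags (other columns) marked control spots, outliers, saturation and whether a signal was well above background. Groups were taken from the labels.

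Control spots and outlier spots (147 and 126) were left out, spots of a probe were averaged, and signals were scaled as in the study's methods, to a trimmed mean of 2500 without 2% at each end. Probes were named by RefSeq accession through a table of GRCm38.p6, and 32989 of 56593 (58.3%) matched. No probe coordinate is given, since the array design names another build. The log2 ratio is EP4 cKO over Villin-Cre, with bounds for dim probes. Among 278 probes with at least 8 spots kept, the log2 ratios of the spots of a probe had a median SD of 0.035, within 1 hybridization. The way of counting genes past 2-fold was tried on simulated data, which is no test of a difference between the genotypes.

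The mast cell genes and the 22 lists were chosen with earlier results of these data known. The genes named are all members, the defining genes of each list and up to 4 of its largest changes, the 5 genes nearest in ratio to Mcpt4, and Ptger4. The other genes of both protease loci were named after their values were seen, as were single genes of the lists outside this rule. The 12 alternatives were other scalings (75th percentile, loess with span 0.3, trimmed mean over all spots, E1A control spots), normexp (offset 50, on the median signal) with quantile normalization, 1 floor for both arrays, no filter, only probes that passed background on both arrays, the mean of all probes, outlier spots kept, and thresholds of 1.5-fold and 3-fold. Promoter sequences were taken from RefSeq, and protein sequences were not used here. Python 3.11.15 (numpy 2.4.6, pandas 2.3.3, statsmodels 0.14.6, Biopython 1.88, matplotlib 3.10.9) and R 4.3.3 (limma 3.58.1) were used.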

Additional observations from a re-analysis of the deposited data

How the results depend on the processing

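With 1 array per genotype no sample could be left out, and the number of arrays limits the precision. No paired analysis was possible because the groups share fewer than 2 replicate numbers. The count of 5 mast cell genes more than 2-fold higher ran from 4 (3-fold threshold) to 7 (loess, E1A control spots, no filter or the 1.5-fold threshold) over 11 alternatives, and was 2 of 3 genes with a value where only probes well above background on both arrays were kept, because Mcpt1, Mcpt2 and Cpa3 then have no value. The count of 0 lower became 1 (Kit) at the 1.5-fold threshold and stayed 0 under the 11 other alternatives. Kit changed sign with scaling to the E1A control spots (0.38). Other settings raised the median log2 ratio of probes well above background on both arrays (-0.19) by 0.16 (75th percentile), 0.18 (loess), 0.13 (trimmed mean over all spots), 0.17 (normexp) and 1.09 (E1A control spots). The split of all genes into higher and lower, 713 and 1154 here, was 937 and 906, 1134 and 719, 901 and 943, 615 and 388, and 6341 and 319 in the same order. With no filter it was 1169 and 7213, and the thresholds of 1.5-fold and 3-fold gave 1444 and 2726 and 324 and 533. Signals below the floor of the Villin-Cre-labelled array give bounds only, for 5 of the 9 genes, and no fold above 1 for Tpsb2.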
